A study of Homo sapiens
Mus musculus with 16 samples.

Results

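The 7 host MHC class II genes were followed across the 4 treatment groups of a breast cancer xenograft study. They are H2-Aa (ENSMUSG00000036594), H2-Ab1 (ENSMUSG00000073421), H2-Eb1 (ENSMUSG00000060586), Cd74 (ENSMUSG00000024610), Ciita (ENSMUSG00000022504), H2-DMa (ENSMUSG00000037649) and H2-DMb1 (ENSMUSG00000079547). The genes were chosen by identity and not by their counts, though with earlier results of these data known. The pairing of names with Ensembl IDs came with that choice, since the matrix holds IDs only. All 7 were found among the 48795 IDs of the mouse matrix, and all 7 passed the filter on low counts, as did 15074 mouse genes in all. The lowest count of any of the 7 in any library was 40.

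Tumours were grown from MDA-MB-231, an established human triple-negative breast cancer line, injected with Matrigel into the mammary fat pad of Balb/c nude mice, and were excised on day 50. All groups carry the same human cells and the same host strain, and each holds 4 mice with 1 paired-end mRNA library per tumour. Combination mice received nab-paclitaxel and phenelzine, nab-paclitaxel mice received that drug alone, phenelzine mice received that drug alone, and vehicle mice received vehicle only, all by intraperitoneal injection. Nab-paclitaxel is paclitaxel, which freezes microtubules, packed with albumin; mice had 30 mg/kg of it on days 15, 22 and 29, so the last dose preceded excision by several weeks. Phenelzine, a monoamine oxidase inhibitor, was given daily at 40 mg/kg from day 15. Nude mice lack a thymus and so have few mature T cells, but keep macrophages, dendritic cells and B cells, the main cells that carry MHC class II. Balb/c mice also carry another H2 haplotype than the strain behind the mm10 build named in the submitters' processing notes. How allele differences affected the counts of these genes was not tested, and levels were compared only between libraries, gene by gene.

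MHC class II molecules are pairs of an alpha and a beta chain that show peptides from swallowed proteins to CD4 T cells. In the mouse they come as A molecules (H2-Aa with H2-Ab1) and E molecules (whose beta chain is H2-Eb1). The invariant chain, encoded by Cd74, escorts new chains and keeps their groove filled, and the DM molecule (H2-DMa with H2-DMb1) then exchanges its remnant for peptides. Ciita, the class II transactivator, is the master switch of the whole set, made in antigen-presenting cells and, after interferon gamma, in many other cells.

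Human totals ran from 11065140 to 34537399 counts per library, mouse totals from 3457146 to 27389920 counts, and the mouse share of all counts from 9.25% to 71.2%. On the first component of the human genes (48.7% of the variance) nab-paclitaxel 1 and 4 and combination 1 and 3 stood apart from the other libraries, with scores of 72.7 to 125 against at most 5.37 elsewhere. Mouse levels are in CPM, counts scaled to 1000000 mouse counts with TMM factors applied, and values are listed for mice 1 to 4 of each group. In whole tumours, fewer cells of a type and less RNA per cell cannot be told apart. Other mouse IDs could not be paired with gene symbols, so levels of macrophage, dendritic cell and B cell markers were not analysed here.

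Together the 7 genes took 0.0726% to 1.34% of the host counts of a tumour. In the combination group they held 1.34%, 1.34%, 1.06% and 0.946% of all mouse counts. With nab-paclitaxel alone they held 1.28%, 0.661%, 0.638% and 0.916%. The phenelzine libraries had 0.278%, 0.593%, 0.540% and 0.237%, and the vehicle libraries 0.941%, 0.783%, 0.748% and 0.0726%. Every combination library thus lay above every phenelzine library, while the vehicle group held 3 high libraries and the lowest of all 16. The mouse share of the same libraries was 71.2%, 47.4%, 55.9% and 18.6% in the combination group and 59.7%, 23.4%, 21.05% and 41.9% in the nab-paclitaxel group. It was 9.97%, 15.2%, 9.25% and 16.1% in the phenelzine group and 13.8%, 37.8%, 18.97% and 13.6% in the vehicle group.

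The chains of the A molecule were the first point of comparison. H2-Aa stood at 2120.4, 2075, 1795 and 1456 CPM in combination tumours, at 2047, 1045, 845 and 1196 in nab-paclitaxel tumours, at 389.9, 785, 744 and 324 in phenelzine tumours and at 1496, 1109, 982 and 111 in vehicle tumours. Its group means were 1861 ± 306 CPM for the combination, 1283 ± 529 for nab-paclitaxel, 561 ± 237 for phenelzine and 924 ± 585 for vehicle (SD, n = 4 each). H2-Ab1 stood at 2761, 2649, 2048 and 2123 CPM in combination tumours, at 2559, 1519, 1292 and 1738 in nab-paclitaxel tumours, at 567, 1181, 1235 and 463 in phenelzine tumours and at 2259.8, 1308, 1498 and 168 in vehicle tumours. For both chains the combination libraries were all above the phenelzine libraries, and nab-paclitaxel 1 and vehicle 1 reached the combination range. H2-Eb1, the beta chain of the E molecule, had 1757, 1513, 1177 and 1018 CPM in combination tumours, 1397, 733, 553 and 717 in nab-paclitaxel tumours, 219.7, 515, 510.2 and 206 in phenelzine tumours, and 1010.2, 698, 704 and 68.4 in vehicle tumours. Of the 7 genes, it alone had combination libraries that also lay above all vehicle libraries, by a margin of 8.05 CPM between combination 4 and vehicle 1.

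The invariant chain, Cd74, was again higher in each combination library than in any phenelzine library. Its levels were 6713, 5299, 4925 and 4557 CPM in combination tumours, 6051, 3002, 3456 and 5462 in nab-paclitaxel tumours, 1452, 3042, 2603 and 1307 in phenelzine tumours and 4802, 3441, 3663 and 351 in vehicle tumours. Nab-paclitaxel 1 and 4 were at the level of the combination group, while nab-paclitaxel 2 lay just below the highest phenelzine library.

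The DM chains, which edit the peptides, were spread differently. H2-DMa had 395, 383, 257 and 271 CPM in combination tumours, 289, 161, 133 and 179 in nab-paclitaxel tumours, 113, 157, 204 and 96.4 in phenelzine tumours, and 370.0, 205, 245.9 and 45.1 in vehicle tumours. H2-DMb1 had 159.7, 121, 84.4 and 128 CPM in combination tumours, 106, 72.4, 66.8 and 83.4 in nab-paclitaxel tumours, 42.8, 74.5, 84.2 and 38.3 in phenelzine tumours, and 167, 109, 102 and 12.4 in vehicle tumours. Vehicle 1 lay within the combination range in H2-DMa and above it in H2-DMb1, and 3 of the 4 nab-paclitaxel libraries lay below the 3 highest vehicle libraries in each of the 2 genes. The lowest combination library and the highest phenelzine library nearly met in H2-DMb1, at 84.36 and 84.15 CPM. H2-DMb1 has a close relative in the mouse genome, H2-DMb2, and how reads shared between them were counted is not given in the sources used here.

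Ciita, the transactivator, stood at 132, 122, 89.1 and 93.6 CPM in combination tumours, at 93.95, 69.1, 51.3 and 78.7 in nab-paclitaxel tumours, at 25.4, 74.6, 75.4 and 25.6 in phenelzine tumours and at 133, 325, 113 and 7.98 in vehicle tumours. The vehicle group held both the highest and the lowest of the 16 libraries, a 40.7-fold range, while the combination group ranged 1.48-fold.

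**Figure D1:**
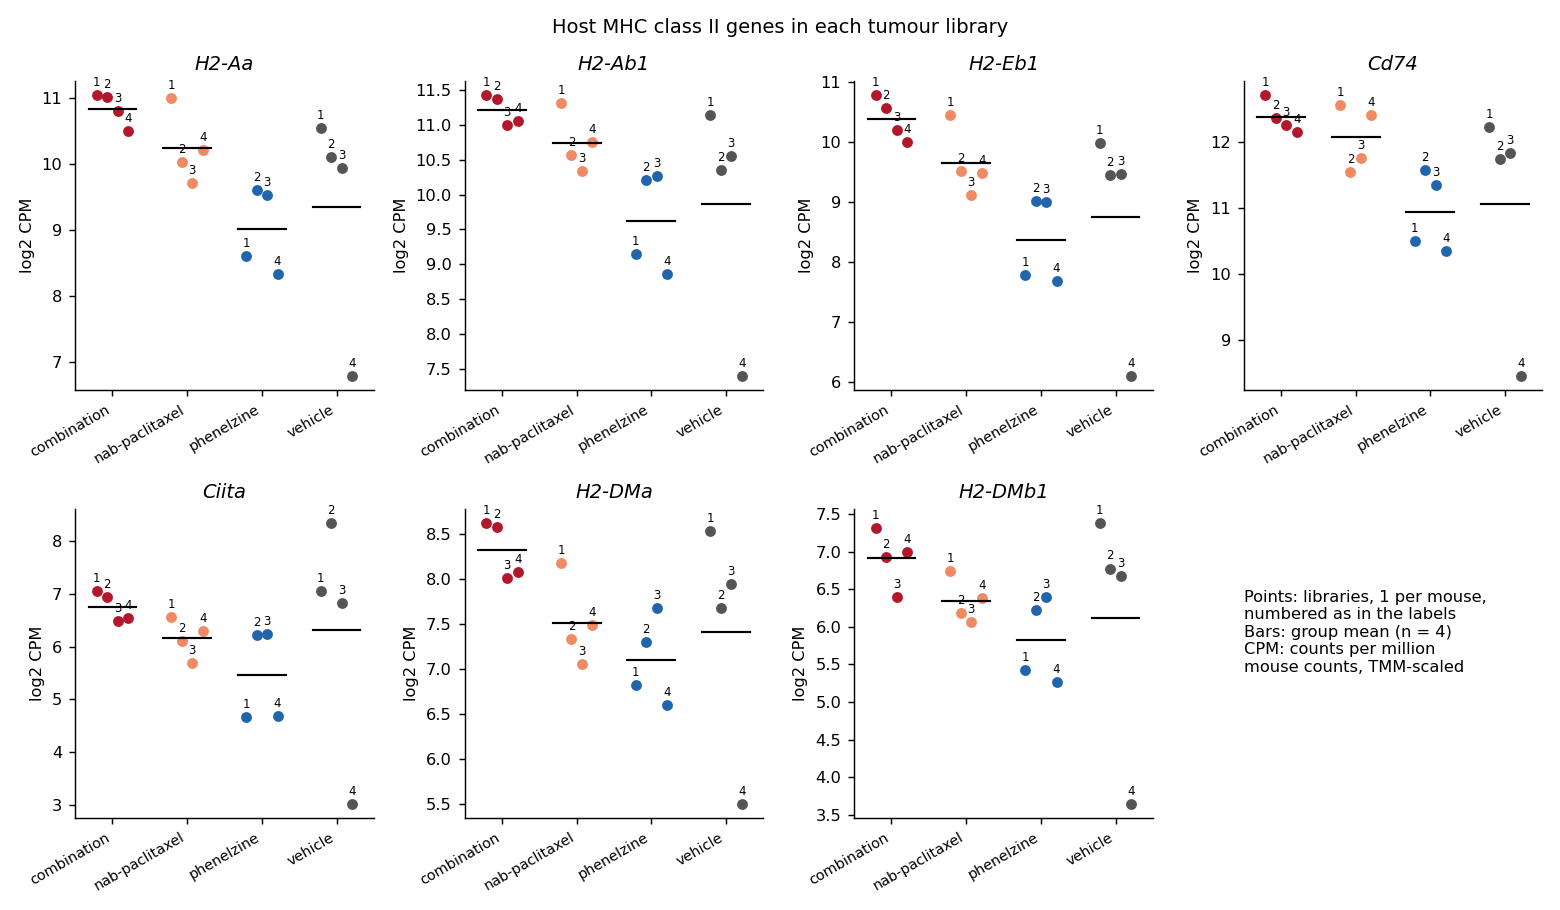
Level of each of the 7 host MHC class II genes (log2 CPM, vertical axis) in the 16 tumour libraries, by treatment group; points are libraries numbered by mouse, and bars are group means of 4. Combination libraries lie above all phenelzine libraries in every panel, and vehicle 4 is the lowest library in every panel.

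By group mean CPM, H2-Aa, H2-Ab1, H2-Eb1 and Cd74 had the same order, with the combination highest, then nab-paclitaxel, then vehicle, then phenelzine. H2-DMa and H2-DMb1 were ordered combination, vehicle, nab-paclitaxel and phenelzine, and Ciita vehicle, combination, nab-paclitaxel and phenelzine. The place of vehicle for Ciita rests on vehicle 2, since the other 3 vehicle libraries averaged 84.9 CPM, below the combination mean of 109 CPM. Phenelzine was thus lowest for all 7. The ranges of neighbouring groups in these orders overlapped in all 21 steps. The difference between neighbours exceeded the larger of the 2 SDs only for the combination over nab-paclitaxel, in H2-Aa, H2-Ab1, H2-Eb1 and Ciita.

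Vehicle 4 stood out from its group in all 7 genes. It lay 8.87-fold below the lowest other vehicle library in H2-Aa, 10.2-fold in H2-Eb1, 9.81-fold in Cd74, 14.2-fold in Ciita and 4.54-fold in H2-DMa. It was also 2.14-fold to 3.72-fold below the lowest of the other 15 libraries, whatever their treatment. Over all 15074 genes tested, vehicle 4 differed from the median of the other vehicle libraries by a median of -0.0012 on the log2 scale. The median of the 7 genes was -3.32, and 184 genes (1.22%) were that low or lower in it. Vehicle 4 had 5276131 mouse counts and a mouse share of 13.6%, against 5210909 mouse counts and 13.8% in vehicle 1. Vehicle 1 had the highest level among vehicle libraries in all of the 7 genes but Ciita. The SD of the 7 genes between vehicle libraries had a median of 1.72 on the log2 scale, against 0.45 for all genes tested, and 5.19% of genes had a larger one. In the combination group the median SD was 0.28 for the 7 genes, against 0.33 for all.

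Each mouse gene was tested with edgeR's quasi-likelihood test over all 16 libraries, with Benjamini-Hochberg adjustment over the 15074 genes and a threshold of 0.05. None of the 7 genes passed in any of 8 contrasts. The combination against phenelzine had the largest median log2 fold change of the 7 genes, 1.35 against 0.03 over all genes, the question being what nab-paclitaxel added to phenelzine. H2-Eb1 averaged 1366 ± 332 CPM with the combination and 363 ± 173 CPM with phenelzine (SD, n = 4 each). Its log2 fold change was 1.91, with an SE of 0.59 and a 95% interval of 0.66 to 3.17 (edgeR adjusted p = 0.177). For H2-Aa the log2 fold change was 1.73 (SE 0.56, edgeR adjusted p = 0.181), and for H2-Ab1 1.48 (SE 0.55, edgeR adjusted p = 0.210). Cd74 differed by 1.35 (SE 0.56), H2-DMa by 1.19 (SE 0.45), Ciita by 1.12 (SE 0.67) and H2-DMb1 by 1.04 (SE 0.51), with edgeR adjusted p-values of 0.218 to 0.378. The adjusted test called 0.00663% of all mouse genes in this contrast, which was 1 gene. At an unadjusted p under 0.05, 5 of the 7 genes passed, against 18.1% of all genes tested. The 4 combination libraries lay above the 4 phenelzine libraries in all 7 genes, against a background of 11.2% of genes tested whose groups did not overlap in either direction. The 7 genes vary together, so these are not 7 separate observations.

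The mouse share moved with this contrast. It averaged 48.3% ± 22.1 with the combination and 12.6% ± 3.54 with phenelzine (SD, n = 4 each). Relative to all counts, human and mouse, in CPM, the 7 genes summed to 9513, 6356, 5913 and 1763 with the combination and to 277, 903, 499.7 and 382 with phenelzine. On that scale all 7 genes passed (edgeR adjusted p = 0.00480 to 0.00494, log2 fold changes of 3.05 to 3.98), but so did 86.4% of all mouse genes, and the median of all genes was 2.00. The median of the 7 genes exceeded that of all genes by 1.38 on this scale, and by 1.32 within mouse counts. With the mouse share as a covariate the log2 fold changes were 0.32 to 1.24 (edgeR adjusted p = 0.9999 for each). The share was measured after treatment. It was 18.6% to 71.2% with the combination and 9.25% to 16.1% with phenelzine, without overlap. Share and treatment therefore cannot be told apart in this fit. DESeq2 called H2-Aa and H2-Eb1 in this contrast, alongside 3.76% of all genes.

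For the combination against vehicle, the effect of both drugs given together, none of the 7 genes passed. The log2 fold change was 1.14 for H2-Eb1 (SE 0.57, 95% interval -0.09 to 2.36, edgeR adjusted p = 0.393), 1.01 for H2-Aa (SE 0.55), 0.87 for H2-Ab1 (SE 0.54), 0.81 for Cd74 (SE 0.55), 0.59 for H2-DMa (SE 0.45) and 0.34 for H2-DMb1 (SE 0.50). Ciita was at -0.41 (SE 0.66). The adjusted test called 0.0332% of mouse genes, 13.7% had an unadjusted p under 0.05 with none of the 7 among them, and 5.27% did not overlap between these groups, H2-Eb1 among them. The median of the 7 genes was 0.81 with all libraries, 0.46 without vehicle 4 and 1.13 without vehicle 1. Ciita was at 0.37 without vehicle 2. With the mouse share as a covariate the median was 0.40. Relative to all counts of both species it was 1.98, where none of the 7 passed and the median of all genes was 1.14.

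For phenelzine against vehicle, which asks what phenelzine did alone, all 7 fold changes were negative and none passed. Ciita was at -1.53 (SE 0.68, 95% interval -2.98 to -0.09, unadjusted p = 0.0393, edgeR adjusted p = 0.795), and it was the only member at an unadjusted p under 0.05, a level that 6.11% of genes met. The other 6 ranged from -0.77 for H2-Eb1 to -0.54 for Cd74, and all 7 overlapped between the groups, where 2.02% of genes did not. EdgeR called 0% of genes tested in this contrast, with 921 genes at an unadjusted p under 0.05, and DESeq2 called 11. Single vehicle libraries moved these values both ways. Without vehicle 1 the median of the 7 genes was -0.30 in place of -0.70, and none had an unadjusted p under 0.05. Without vehicle 2, the highest in Ciita, Ciita was at -0.74, again with no gene of the 7 at an unadjusted p under 0.05. Without vehicle 4, the lowest library in all 7 genes, the 7 fold changes ran from -1.90 to -0.89, with a median of -1.05. The lowest edgeR adjusted p was then 0.219.

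Nab-paclitaxel alone against vehicle gave mixed signs. Cd74 was at 0.55 (SE 0.55), H2-Aa at 0.47 (SE 0.54), H2-Eb1 at 0.46 (SE 0.57) and H2-Ab1 at 0.44 (SE 0.54), while Ciita was at -0.99 (SE 0.66), H2-DMb1 at -0.25 (SE 0.50) and H2-DMa at -0.18 (SE 0.45). The edgeR adjusted p-values were 0.569 to 0.905, and 0% of genes tested were called, with 1799 (11.9%) at an unadjusted p under 0.05 and 221 called by DESeq2. None of the 7 had an unadjusted p under 0.05, and all 7 overlapped between the groups, where 5.61% of genes did not. Relative to all counts of both species, H2-DMa and H2-DMb1 had the opposite sign, at 0.77 and 0.57, where the median of all genes was 0.71. The median of the 7 genes was 0.44 with all libraries, 0.82 without vehicle 1, 0.10 without vehicle 4, 0.11 without nab-paclitaxel 1, 0.02 without the 4 libraries that stood apart and 0.11 with the mouse share as a covariate. Ciita was at -0.20 without vehicle 2.

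Adding phenelzine to nab-paclitaxel gave positive fold changes in all 7 genes, from 0.26 for Cd74 (SE 0.55) to 0.78 for H2-DMa (SE 0.45), with edgeR adjusted p-values of 0.851 to 0.968 against 0.0199% of genes called. None had an unadjusted p under 0.05, which 5.53% of genes had, and all 7 overlapped, where 3.87% of genes did not. H2-DMa, at 326 ± 72.6 CPM with the combination and 190.4 ± 68.7 CPM with nab-paclitaxel (SD, n = 4 each), had an interval of -0.18 to 1.74. The phenelzine effect therefore had a negative sign without nab-paclitaxel and a positive sign with it in all 7 genes. That difference is the interaction of the drugs, and it did not pass in any of them. It was 2.11 for Ciita (SE 0.94, unadjusted p = 0.0416, edgeR adjusted p = 0.602), 1.38 for H2-DMa (SE 0.64, unadjusted p = 0.0473, edgeR adjusted p = 0.606) and 0.80 to 1.46 for the other 5, where 8.15% of genes had an unadjusted p under 0.05 and 0% passed adjustment. Without vehicle 2 the interaction of Ciita was 1.31, and without vehicle 1 the median of the 7 genes was 0.90 in place of 1.29; in neither case had any of the 7 an unadjusted p under 0.05. Without vehicle 4, the lowest library in all 7 genes, the median was 1.62, with a lowest edgeR adjusted p of 0.193.

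**Figure D2:**
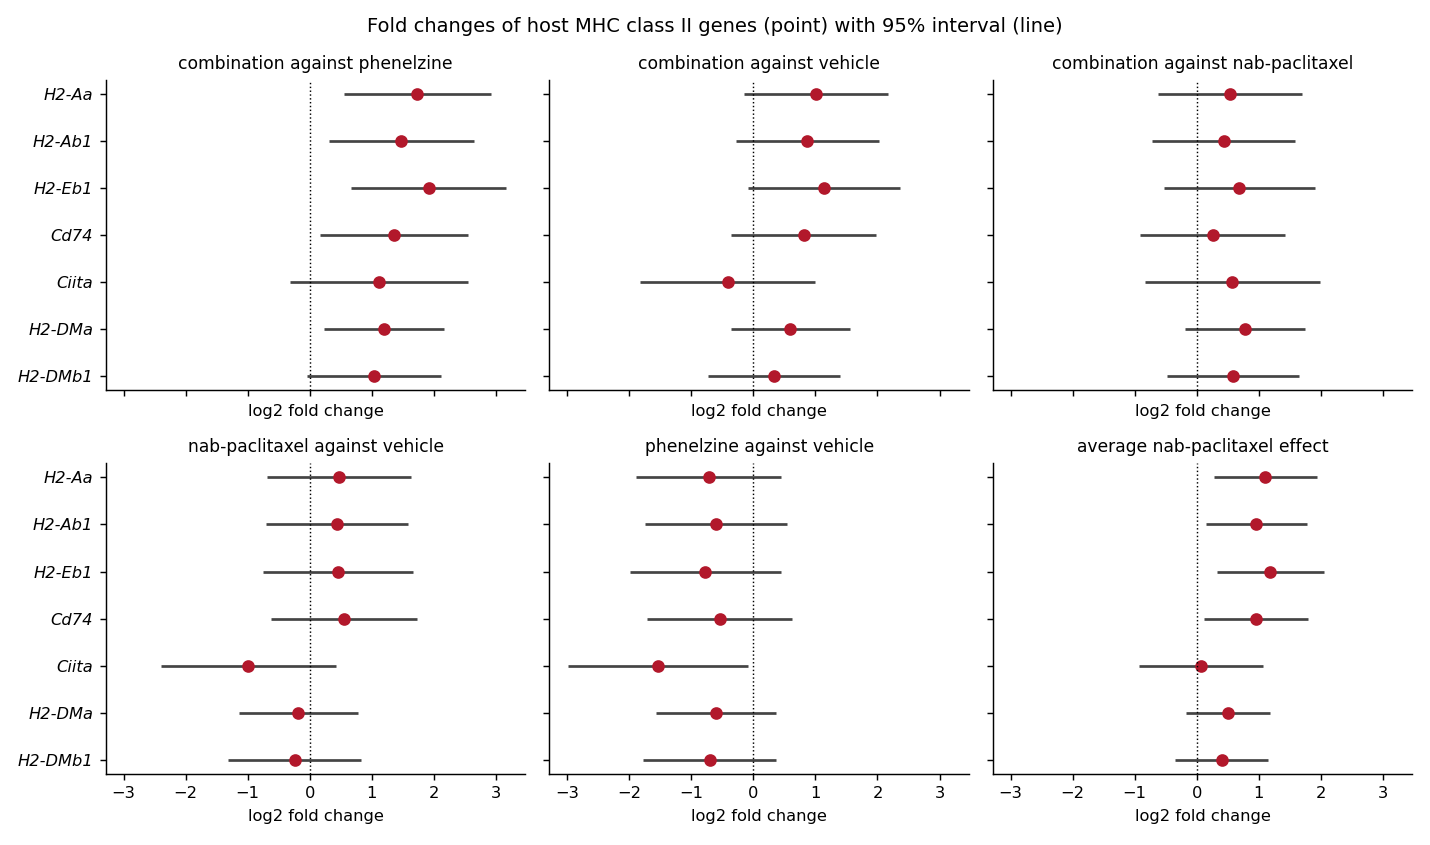
Log2 fold changes (horizontal axis) of the 7 genes in 6 contrasts, with points for the edgeR estimate and lines for its 95% interval before adjustment. Intervals lie above 0 for 5 genes in the combination against phenelzine and for H2-Aa, H2-Ab1, H2-Eb1 and Cd74 in the average nab-paclitaxel effect, and below 0 for Ciita in phenelzine against vehicle; none passed after adjustment over all genes.

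Averaged over both phenelzine states, nab-paclitaxel set 8 libraries against 8. None of the 7 genes passed. H2-Eb1 averaged 1108 ± 428 CPM in the 8 libraries with nab-paclitaxel and 491 ± 314 CPM in the 8 without (SD), and its log2 fold change was 1.18 with an SE of 0.41 (edgeR adjusted p = 0.127). H2-Aa was at 1.10 (SE 0.39, edgeR adjusted p = 0.133), H2-Ab1 at 0.96 (SE 0.38, edgeR adjusted p = 0.174) and Cd74 at 0.95 (SE 0.39, edgeR adjusted p = 0.182). In each of these 4 genes, which vary together, all 8 libraries with nab-paclitaxel lay above the median of the 8 without. The share of all genes that did so was not counted. H2-DMa was at 0.50 (SE 0.32), H2-DMb1 at 0.40 (SE 0.35) and Ciita at 0.07 (SE 0.47, 95% interval -0.93 to 1.06). The test called 0.796% of genes here, 120 in all, and 20.7% had an unadjusted p under 0.05, as did 4 of the 7 genes. No gene of the 7 separated the 8 libraries from the other 8, as 0.325% of genes did. DESeq2 called H2-Aa and H2-Eb1, alongside 8.68% of all genes, and the scale of all counts called all 7, alongside 84% of genes and with a median of 1.35 over all genes. With the mouse share as a covariate the median of the 7 was 0.54, against 0.95 without it. The average phenelzine effect lay between -0.48 for Ciita and 0.09 for H2-DMa, with edgeR adjusted p-values of at least 0.993 where 0.0265% of genes were called and 3.81% had an unadjusted p under 0.05, none of the 7 among them. Its median over the 7 genes was -0.09, and -0.26 to 0.12 with 1 library left out at a time; Ciita was at -0.09 without vehicle 2.

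Ratios between the genes within a library do not depend on the library total or on its scaling. The 6 ratios were compared between the 8 libraries with a drug and the 8 without it by exact permutation tests, two-sided, with labels permuted within each state of the other drug (4900 arrangements, smallest possible p 0.000408) and adjusted over the 12 tests. Ratios are of counts, so only their differences between libraries are read.

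The ratio of H2-DMa to H2-Ab1, of the peptide editor to the chain it acts on, was lower with nab-paclitaxel. Its log2 value was -2.81, -2.79, -2.99 and -2.97 with the combination and -3.14, -3.24, -3.28 and -3.28 with nab-paclitaxel, against -2.32, -2.91, -2.60 and -2.26 with phenelzine and -2.61, -2.67, -2.61 and -1.90 with vehicle. Its mean was -3.06 ± 0.20 over the 8 libraries given nab-paclitaxel, against -2.48 ± 0.31 over the 8 not given it (SD), a difference of -0.58 (exact permutation p = 0.00122, adjusted p = 0.0122). All 8 lay below the median of those without, and 6 lay below every one of them. Vehicle 4 had the highest ratio of all, and without it the difference was -0.49 (exact permutation adjusted p = 0.00735). By the same test at an unadjusted p under 0.05, 67.9% of 15073 genes had a lower ratio to H2-Ab1. In the average nab-paclitaxel effect the log2 fold change was 0.96 for H2-Ab1 and 0.50 for H2-DMa.

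Ciita to H2-Ab1, the transactivator to a target, was also lower with nab-paclitaxel. Its log2 value lay between -4.52 and -4.39 with the combination and between -4.77 and -4.46 with nab-paclitaxel, against -4.47 to -3.98 with phenelzine and -4.08, -2.01, -3.72 and -4.38 with vehicle. Over the 8 libraries given nab-paclitaxel it averaged -4.52 ± 0.13, against -3.86 ± 0.78 over the rest (SD), a difference of -0.67 (exact permutation p = 0.00204, adjusted p = 0.0122). In the average nab-paclitaxel effect the log2 fold change was 0.07 for Ciita and 0.96 for H2-Ab1. Vehicle 2 had 24.9 Ciita counts for every 100 H2-Ab1 counts, where the other 15 libraries had 3.67 to 7.58. Without vehicle 2 the difference was -0.41 (exact permutation adjusted p = 0.00735), and the call was lost without any 1 of the 4 nab-paclitaxel libraries (exact permutation adjusted p of 0.0784 to 0.108). Both calls were lost, at nearly the same size, without the 4 libraries that stood apart in the human genes, which leaves 2 libraries in each of the groups given nab-paclitaxel.

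The other ratios did not pass. H2-Eb1 to H2-Ab1 averaged -0.97 ± 0.22 with nab-paclitaxel and -1.18 ± 0.14 without (SD, 8 libraries each), a difference of 0.21 (exact permutation p = 0.0433, adjusted p = 0.173). Between chains of 1 molecule, the difference was -0.12 for H2-Ab1 to H2-Aa (exact permutation adjusted p = 0.409) and -0.01 for H2-DMb1 to H2-DMa (exact permutation adjusted p = 0.950). Cd74 to H2-Ab1 differed by -0.02 (exact permutation adjusted p = 0.903). No ratio passed with phenelzine, where the differences were -0.25 to 0.14 and the adjusted p-values at least 0.784.

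Most host genes had a lower ratio to H2-Ab1 with nab-paclitaxel, not H2-DMa and Ciita alone. All these ratios are taken to H2-Ab1, so a higher level of H2-Ab1 itself lowers each of them. H2-Ab1 was at 0.96 in the average nab-paclitaxel effect and was not called (edgeR adjusted p = 0.174). By the exact permutation test at an unadjusted p under 0.05, 67.9% of the other 15073 genes tested had a lower ratio and 0.212% had a higher one. The median difference over these genes was -1.23, and 88.9% of them had a difference at least as low as that of H2-DMa and 87.1% at least as low as that of Ciita. A lower ratio with a p at least as small was seen in 4.31% of genes for H2-DMa and in 8.11% for Ciita. H2-Eb1 and Cd74 lay further toward the same end, with 96.3% and 95.1% of genes at least as low. All of these members thus lay above the median difference of all genes.

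**Figure D3:**
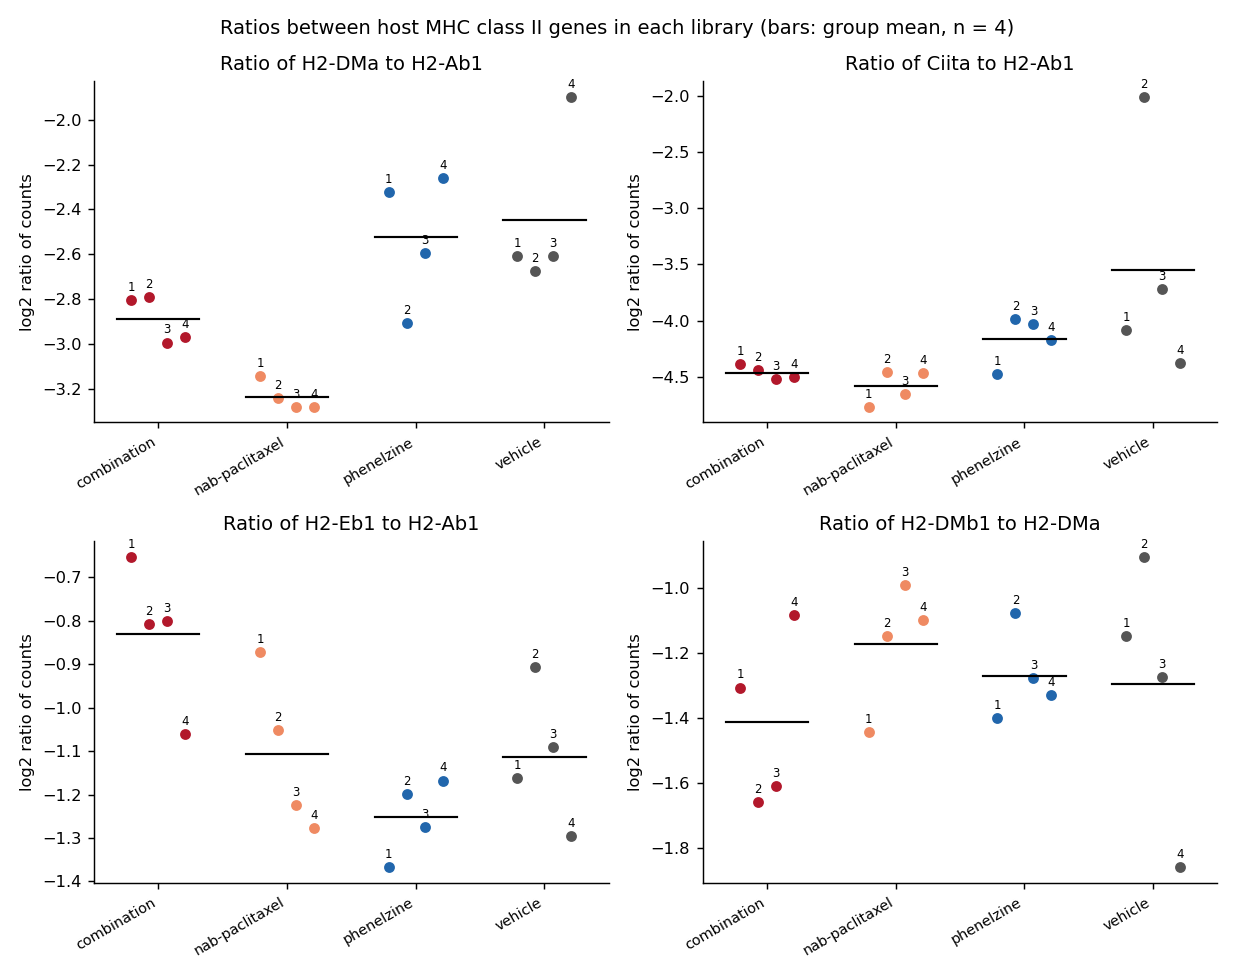
Log2 ratio of counts (vertical axis) for 4 pairs of host MHC class II genes in each library, by treatment group; points are libraries numbered by mouse and bars are group means of 4. The ratio of H2-DMa to H2-Ab1 is -2.79 or lower in all 8 libraries with nab-paclitaxel, and vehicle 2 stands alone at -2.01 in the ratio of Ciita to H2-Ab1.

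From tumour to tumour the genes moved together. Over the 16 libraries, Pearson's r between log2 CPM values was 0.915 to 0.996 in the 15 pairs without Ciita (Spearman 0.744 to 0.982) and 0.851 to 0.918 in the 6 pairs with it (Spearman 0.709 to 0.938). All 21 pairs passed a one-sided permutation test within groups, with adjusted p-values of at most 0.0149 for r and 0.00517 for rho. H2-Aa and H2-Eb1 were the closest pair (r = 0.996). Without vehicle 4, r was 0.843 to 0.994 without Ciita and 0.696 to 0.838 with it. With the 2 libraries farthest from the median of the first gene left out, the lowest r was 0.568, for Cd74 and Ciita. Without vehicle 2 and 4, Ciita correlated with the other 6 genes at 0.887 to 0.950.

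The genes most like the set were sought among the other 12107 tested genes with a mean of at least 5 CPM, by Pearson's r with the mean standardised level of the 7 genes over the 16 libraries. ENSMUSG00000036322 came first (r = 0.988), with 1046, 962, 832 and 709.8 CPM with the combination and 615, 635, 501 and 48.1 CPM with vehicle. Its levels were 831, 537, 368 and 590.3 CPM with nab-paclitaxel and 174, 398, 354 and 148 CPM with phenelzine. Its lowest value was in vehicle 4, as for the 7 genes, a trait that ranking by r over these same libraries favours. ENSMUSG00000000682 came second (r = 0.946), with 495, 533, 379 and 381 CPM with the combination and 490.3, 505, 397 and 132 CPM with vehicle. In all, 15 genes reached an r of 0.9. These IDs are not paired with symbols in the files or tables at hand.

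Class II levels within host RNA were also set against the amount of host RNA. Among the 8 libraries with nab-paclitaxel, Pearson's r between mouse share and log2 CPM was 0.838 for Cd74 (exact permutation p = 0.00823, adjusted p = 0.115, Spearman 0.810 with exact permutation p = 0.0218 and adjusted p = 0.171), 0.811 for H2-Aa and 0.531 to 0.788 for the other 5. None of the 14 correlations passed adjustment. These 8 libraries pool the combination and nab-paclitaxel groups, with mean shares of 48.3% and 36.5%, and the permutations did not keep the groups apart. With combination 1 and combination 4 left out, the 2 libraries farthest from the median share, r was 0.754 to 0.917. In the 8 libraries without nab-paclitaxel r was 0.207 to 0.336 for 6 genes and 0.615 for Ciita (exact permutation p = 0.116, adjusted p = 0.232), and Ciita was at 0.428 without vehicle 2 and phenelzine 3. Vehicle 1 and vehicle 4, with shares of 13.8% and 13.6%, were at opposite ends of the vehicle group in Cd74.

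**Figure D4:**
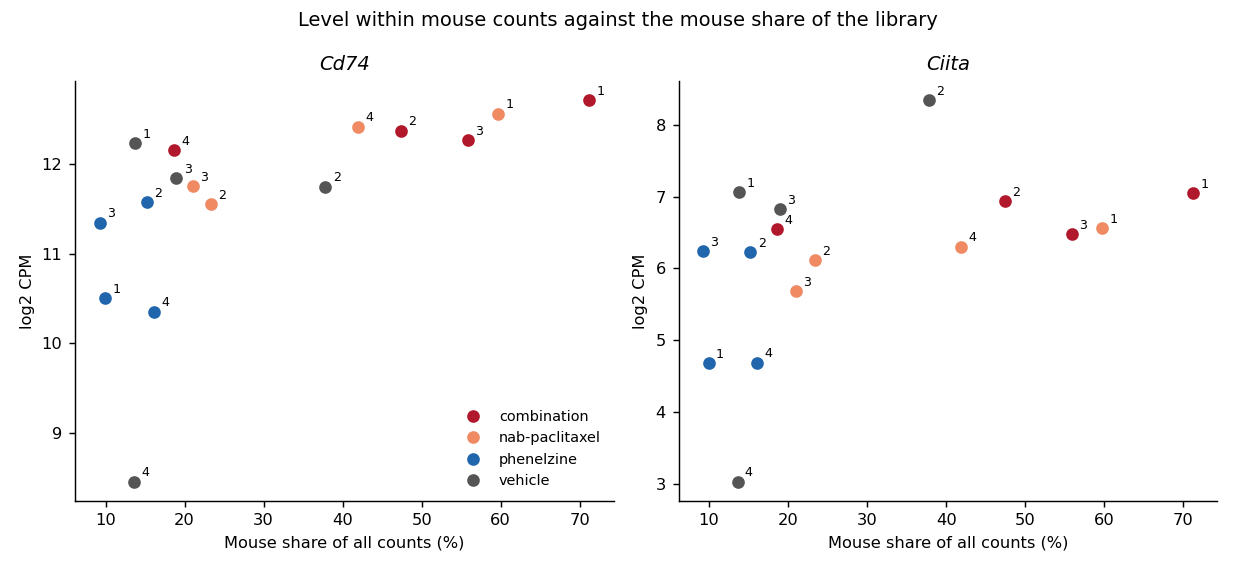
Level of Cd74 and of Ciita within mouse counts (log2 CPM, vertical axis) against the mouse share of all counts (percent, horizontal axis), with 1 point per library, coloured by group and numbered by mouse. Among the 8 nab-paclitaxel and combination libraries the points tend to rise with the share, but no correlation passed adjustment. Vehicle 1 and vehicle 4 differ widely at nearly the same share.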

How the data were processed

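The files hold whole-number counts per Ensembl gene ID, deposited by the authors as 1 human and 1 mouse matrix of the same 16 libraries. The submitters' processing notes list Trimmomatic 0.36, HISAT2 2.04, Picard, StringTie, edgeR, hg38 and mm10, without saying what each did. The division of reads between species, duplicate removal, strand and annotation are steps not given in the sources used here, and whether human class II reads were counted as mouse was not tested. P-values measure the spread between single tumours.

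The test was edgeR (4.0.16, R 4.3.3) on mouse counts: TMM factors, the default filter with a minimum count of 10, group means fitted to 16 libraries (12 degrees of freedom left over) and quasi-likelihood F statistics, from whose square root each SE came. Adjusted p-values cover 15074 genes. Log2 CPM had a prior count of 2 and ratios a pseudocount of 0.5. Limma 3.58.1 (voom) and DESeq2 1.42.0 served as alternatives, beside other scalings, filters, covariates and left-out libraries, and scipy 1.17.1 gave the permutation tests. The test was also run on simulated counts with known changes, and how many of these it recovered is not given here. Libraries of a group differed beyond counting noise (chi-square per degree of freedom at least 14.1). By rule all 7 genes were named, with the 2 IDs most like them. Lists of pathway genes and cell type markers, written by symbol, could not be matched to mouse IDs and gave no result. Members and lists were chosen with earlier results of these data known.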

Additional observations from a re-analysis of the deposited data

Results flagged for a closer look

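Within groups of 4 libraries, the gap of the highest or lowest value to its neighbour was divided by the group's range and set against Dixon's critical value, in 28 sets of log2 CPM values, 24 sets of log2 ratios and 4 sets of mouse shares. In all 5 of 56 sets passed it; chance flags about 1 in 20 groups, and these sets are not independent, since the genes vary together. Vehicle 4 was the low value for H2-Aa (gap over range 0.838), H2-Eb1 (0.862) and Cd74 (0.873), and the high value for the ratio of H2-DMa to H2-Ab1 (0.913). Vehicle 2 was the low value for the ratio of H2-Ab1 to H2-Aa (0.962), at 0.24 on the log2 scale against 0.60 to 0.61 in the other vehicle libraries.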

How the results depend on the processing

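No MHC class II gene was called in any contrast, nor without any 1 library, and 2 alternatives changed this: 7 were called relative to all counts of both species and 2 with DESeq2, in the combination against phenelzine and in the average nab-paclitaxel effect alike. Over the alternatives all mouse genes called ran from 0 to 13025 in the first of these contrasts (1 in the design used) and from 0 to 12669 in the second (120). The highest count was 325 for the combination against vehicle (5), 221 for nab-paclitaxel (0), 11 for phenelzine (0), 46 for the combination against nab-paclitaxel (3), 18 for the interaction (0) and 23 for the average phenelzine effect (4). Deviations from the group mean correlated at a mean r of 0.069 between same-numbered libraries of different groups, against -0.023 between other-numbered ones. Of the 24 same-numbered pairs, 11 lay above 0.1, and whether mouse numbers pair the libraries was not tested. With the replicate block 0 of the 7 genes were called, and in the average phenelzine effect the block gave H2-Eb1 0.058 and H2-DMb1 0.018, the opposite sign.

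Other signs turned in fold changes that were not called; the cause was not tested. Relative to all counts, H2-DMa and H2-DMb1 were at 0.77 and 0.57 for nab-paclitaxel against vehicle, Ciita at 0.35 for the combination against vehicle and H2-DMa at -0.17 in the average phenelzine effect. With voom, Ciita was at 0.38 for the combination against vehicle, and in the average phenelzine effect H2-Aa was at 0.098, H2-Ab1 at 0.030, H2-Eb1 at 0.11, Cd74 at 0.0097 and H2-DMb1 at 0.062. Without the 4 libraries that stood apart those 5 genes were at 0.096, 0.087, 0.11, 0.039 and 0.074, and Ciita was at -0.083 in the average nab-paclitaxel effect, where the mouse share as a covariate gave -0.45. Without vehicle 4 and with that covariate, an alternative chosen after seeing the data, nab-paclitaxel against vehicle gave H2-Aa -0.12, H2-Ab1 -0.037, H2-Eb1 -0.17 and Cd74 -0.0046. The same alternative gave H2-DMb1 -0.13 for the combination against vehicle, Ciita -0.51 in the average nab-paclitaxel effect and H2-DMa -0.073 in the average phenelzine effect.

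The following ranges are over leaving out 1 library at a time and, chosen after seeing the data, vehicle 2 and 4 together. Nab-paclitaxel against vehicle ran from -0.060 to 0.86 for H2-Ab1, -0.67 to 0.22 for H2-DMa and -0.68 to 0.16 for H2-DMb1. The combination against vehicle ran from -0.78 to 0.37 for Ciita and -0.11 to 0.74 for H2-DMb1, and the average nab-paclitaxel effect from -0.12 to 0.46 for Ciita. The average phenelzine effect ran from -0.30 to 0.078 for H2-Aa, -0.34 to 0.12 for H2-Ab1, -0.27 to 0.13 for H2-Eb1, -0.37 to 0.013 for Cd74, -0.29 to 0.14 for H2-DMb1 and -0.16 to 0.28 for H2-DMa. Leaving out 1 library, ratios with phenelzine ran from -0.073 to 0.0024 for H2-Ab1 to H2-Aa, -0.080 to 0.032 for Cd74 to H2-Ab1 and -0.39 to 0.0094 for Ciita to H2-Ab1. With nab-paclitaxel they ran from -0.078 to 0.034 for Cd74 to H2-Ab1, -0.10 to 0.056 for H2-DMb1 to H2-DMa and -0.81 to -0.41 for Ciita to H2-Ab1. Without the 4 libraries that stood apart H2-DMb1 to H2-DMa was at 0.063. The 2 ratios that had passed no longer did, with far fewer arrangements to permute. They were at -0.59 for H2-DMa to H2-Ab1 and at -0.66 for Ciita to H2-Ab1.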
